A study of Rattus norvegicus with 6 samples.

Results

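The microRNAs miR-9a and miR-124 were followed in the peri-infarct cortex of rats after stroke, with and without magnetic stimulation of the brain. Both arms of each hairpin were chosen by name, namely rno-miR-9a-5p, rno-miR-9a-3p, rno-miR-124-3p, and rno-miR-124-5p, and these were 4 of the 493 miRNAs in the count table. All 4 were among the 452 miRNAs that passed the filter on low counts and were tested. Small RNA was sequenced from male Sprague-Dawley rats, 3 of the MCAO and 3 of the MCAO-rTMS group, with 1 library per rat. In every rat of both groups the right middle cerebral artery had been occluded for 90 min and then reperfused, which is the MCAO model of transient stroke. The MCAO rats had no further treatment named in the labels, and their cortex was taken at 7 days. The MCAO-rTMS rats also received repetitive transcranial magnetic stimulation (rTMS), trains of magnetic pulses applied through a coil held above the skull, at 10 Hz on 7 consecutive days, for 10 min a day as the labels give it. The study's methods instead state a daily number of pulses, given in short trains with longer rests between them. That is fewer pulses than 10 Hz throughout the session of the labels would give, and the labels and the methods were not reconciled here. For these rats the labels give no day of tissue collection, and no age is given. The study's supplement titles its comparison of the groups as 7 days after modelling, and its methods start the stimulation on the day after reperfusion. No sham-operated or sham-stimulated rats were analysed here, so the effects of coil, handling, and field cannot be told apart here. The tissue is a mixture of neurons, glia, vessels, and infiltrating blood cells, and in such bulk tissue fewer cells of a type and less RNA per cell cannot be told apart.

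miR-9 and miR-124 are brain-enriched miRNAs that accompany the formation of neurons. miR-124 accumulates as progenitors become neurons and represses transcripts of non-neuronal cells, among them the splicing repressor Ptbp1, whereas miR-9 is present in neural progenitors and in neurons and limits progenitor proliferation. A miRNA hairpin is cut into a 5p and a 3p arm, and usually 1 of them, the guide, is retained in the silencing complex while the other, the passenger, is degraded. miR-9a is unusual in that both arms are known regulators, the 5p arm of the neuronal gene silencer Rest and the 3p arm of its partner Rcor1. The 3p arm and miR-124-3p are both known to repress Actl6a, a chromatin remodelling subunit of progenitors.

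Of the 4 members, 2 matched a mature sequence in the RefSeq tables of the GRCr8 assembly. They are shown because the counts of the 2 arms moved apart, and because the arms have no seed in common. Written 5′ to 3′, with the seed (bases 2 to 8, which pair with target transcripts) in capitals, they read as follows.
miR-9a-5p: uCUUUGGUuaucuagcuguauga
miR-9a-3p: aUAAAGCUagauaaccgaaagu
The 5p arm has 23 bases and the 3p arm 22. Of the 493 miRNAs in the table, 451 matched a RefSeq sequence, and 0 of the matched miRNAs other than these had the seed of either arm.

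The rat has 3 annotated miR-9a genes, and their hairpins are shown because they set what a count of miR-9a can mean. Both arms, in capitals, are the same in all 3.
Mir9-1: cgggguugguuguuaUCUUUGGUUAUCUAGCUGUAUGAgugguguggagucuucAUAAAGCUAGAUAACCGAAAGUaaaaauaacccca
Mir9-2: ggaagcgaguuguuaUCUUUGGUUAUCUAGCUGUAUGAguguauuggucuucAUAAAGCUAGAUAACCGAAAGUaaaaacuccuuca
Mir9-3: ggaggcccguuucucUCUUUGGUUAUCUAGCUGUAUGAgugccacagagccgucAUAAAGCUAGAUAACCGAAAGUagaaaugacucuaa
The hairpins have 89, 87, and 90 bases, and the loops between the arms have 16, 14, and 16. They differ in the loop and in the flanks, which mature miRNA reads do not cover, so a read of either arm cannot be assigned to 1 of the genes. In RefSeq, Mir9-1 overlaps the lncRNA LOC100911992, Mir9-2 the host gene Mir9-2hg, and Mir9-3 the lncRNA Mir9-3hg. Each is also overlapped on the opposite strand by a gene of miR-9b, named Mir3597-1, Mir3597-2, and Mir3597-3. miR-124 also has 3 genes, of which Mir124-1 overlaps the lncRNA LOC102554677 and Mir124-2 the lncRNA LOC120100778.

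The rows of miR-9b held few counts. Its 2 arms are shown because they mirror the arms of miR-9a.
miR-9b-5p: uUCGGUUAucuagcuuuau
miR-9b-3p: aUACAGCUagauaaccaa
The 19 bases of miR-9b-5p are the reverse complement of the first 19 bases of miR-9a-3p, and the 18 bases of miR-9b-3p are the reverse complement of miR-9a-5p from its base 4. The count of miR-9b-5p was 15, 15, and 0 in the MCAO rats with replicate numbers 1, 2, and 3, and it was 10, 0, and 0 in the stimulated rats. The count of miR-9b-3p was 23 in MCAO replicate 3 and 0 in the other 5 libraries. Both arms were listed in few libraries and neither was tested.

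Library totals lay between 10492610 and 13111127 counts for the MCAO rats and between 13722761 and 15411620 for the stimulated rats. Counts from 1 to 9 do not occur in the table, and the smallest count of any member was 867, so the members were far above this floor. Levels are given on 2 scales, and values of single rats follow the replicate numbers 1, 2, and 3 of each group. The library share is the percent of all counts of a library, which needs no scaling factor but falls whenever other miRNAs take more of the counts. CPM is edgeR's CPM value, the count relative to the library total multiplied by a TMM factor. That factor rests on the assumption that most miRNAs do not change, whereas 55.3% of the 452 tested were called with it, so the assumption is uncertain here. The factors were 1.16 to 1.39 in the MCAO libraries and 0.695 to 0.864 in the MCAO-rTMS libraries, so the 2 scales differ between the groups and both are given.

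The order of the members by read count was the same in all 6 libraries, namely miR-9a-5p, miR-124-3p, miR-9a-3p, and miR-124-5p. miR-9a-5p had rank 2 of all miRNAs in the 3 MCAO libraries and in MCAO-rTMS replicate 1, and rank 3 in MCAO-rTMS replicates 2 and 3. Over the 6 libraries only miR-128-3p, another brain-enriched miRNA, had a higher mean count, which places 2 neural miRNAs at the top of libraries labelled as cortex. miR-124-3p ranked between 21 and 24 in the MCAO libraries and between 27 and 37 in the MCAO-rTMS libraries. miR-9a-3p ranked between 40 and 46 in the former and between 73 and 90 in the latter, and miR-124-5p between 98 and 108 and between 124 and 161. No MCAO-rTMS library ranked a member higher than an MCAO library did.

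miR-9a-5p, the arm that targets Rest, took a smaller part of the reads in MCAO-rTMS cortex than in MCAO cortex. Its counts were 2784063, 2174879, and 2333635 in the MCAO rats, and 2182389, 1592016, and 1560751 in the MCAO-rTMS rats. These were 21.2%, 20.7%, and 20.4% of the MCAO libraries and 14.2%, 11.6%, and 10.5% of the MCAO-rTMS libraries. All 3 stimulated rats were below all 3 MCAO rats, and the MCAO rats lay within 1 percentage point of each other. The share averaged 20.8% ± 0.436 (SD, n = 3) without stimulation and 12.1% ± 1.86 (SD, n = 3) with it, a difference of -8.67 percentage points and 1.72-fold lower. On the CPM scale the groups overlapped, with 177254, 179435, and 146158 CPM in the MCAO libraries and 164152, 134221, and 151688 CPM in the MCAO-rTMS libraries. The means were 167616 ± 18615 CPM (SD, n = 3) and 150020 ± 15035 CPM (SD, n = 3), and the log2 fold change of miR-9a-5p was -0.16 (SE 0.15), with a Benjamini-Hochberg adjusted p = 0.391 in the quasi-likelihood test of edgeR.

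miR-9a-3p, the arm that targets Rcor1, was lower in the MCAO-rTMS rats on both scales. Its raw counts were 37785, 19559, and 21315 in the MCAO rats, and 8868, 5470, and 6103 in the MCAO-rTMS rats. The shares were 0.288%, 0.186%, and 0.186% in the MCAO libraries and 0.0575%, 0.0399%, and 0.0413% in the MCAO-rTMS libraries. The groups did not overlap, and MCAO replicate 1 stood above the other 2 MCAO rats. The mean share was 0.220% ± 0.0589 (SD, n = 3) against 0.0462% ± 0.00983 (SD, n = 3), or 4.76-fold lower. In CPM the values were 2406, 1614, and 1335 in the MCAO libraries and 667, 461, and 593 in the MCAO-rTMS libraries, again with no overlap. The log2 fold change of miR-9a-3p was -1.64 (SE 0.27, edgeR adjusted p = 0.00245), which is 3.11-fold lower. It was the 1 member among the 73 miRNAs that the authors deposited as a separate selection, which was made on these same libraries.

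miR-124-3p, the guide arm that marks neurons, was below the MCAO values in every stimulated rat, by a difference in CPM that did not pass the test. Its counts were 96626, 59778, and 77755 in the MCAO rats, and 63264, 41032, and 32511 in the MCAO-rTMS rats. The shares were 0.737%, 0.570%, and 0.679% against 0.410%, 0.299%, and 0.220%, with means of 0.662% ± 0.0849 (SD, n = 3) and 0.310% ± 0.0958 (SD, n = 3). The groups did not overlap in share, and the mean was 2.14-fold lower in the MCAO-rTMS group. In CPM the values were 6152, 4932, and 4870 in the MCAO libraries and 4758, 3459, and 3160 in the MCAO-rTMS libraries, and here the highest stimulated rat lay just under the lowest MCAO rat. The log2 fold change of miR-124-3p was -0.49 (SE 0.21, edgeR unadjusted p = 0.0545 and adjusted p = 0.0861). Without MCAO-rTMS replicate 1, the highest of its group, the log2 fold change was -0.68 and the adjusted p from edgeR was 0.0388. Leaving out any 1 of the other 5 libraries gave values between -0.54 and -0.34 that did not pass the edgeR test, with adjusted p from 0.140 to 0.294.

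miR-124-5p, the passenger arm of miR-124, was the least abundant member and the most variable in the stimulated rats. Its counts were 5514, 4027, and 4094 in the MCAO rats, and 2947, 1952, and 867 in the MCAO-rTMS rats. The shares were 0.0421%, 0.0384%, and 0.0357% in the MCAO libraries and 0.0191%, 0.0142%, and 0.00586% in the MCAO-rTMS libraries. The groups did not overlap, and MCAO-rTMS replicate 3 stood below the other 2 stimulated rats. The mean share was 0.0387% ± 0.00318 (SD, n = 3) against 0.0131% ± 0.00671 (SD, n = 3), or 2.96-fold lower. In CPM the values were 351, 332, and 256 against 222, 165, and 84.3, with a log2 fold change of -0.997 (SE 0.35, edgeR adjusted p = 0.0413). The call was lost when any 1 of MCAO replicates 1, 2, and 3 or MCAO-rTMS replicate 2 was left out, with log2 fold changes of miR-124-5p between -1.10 and -0.91, and it held without MCAO-rTMS replicate 3 at -0.66.

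**Figure D1:**
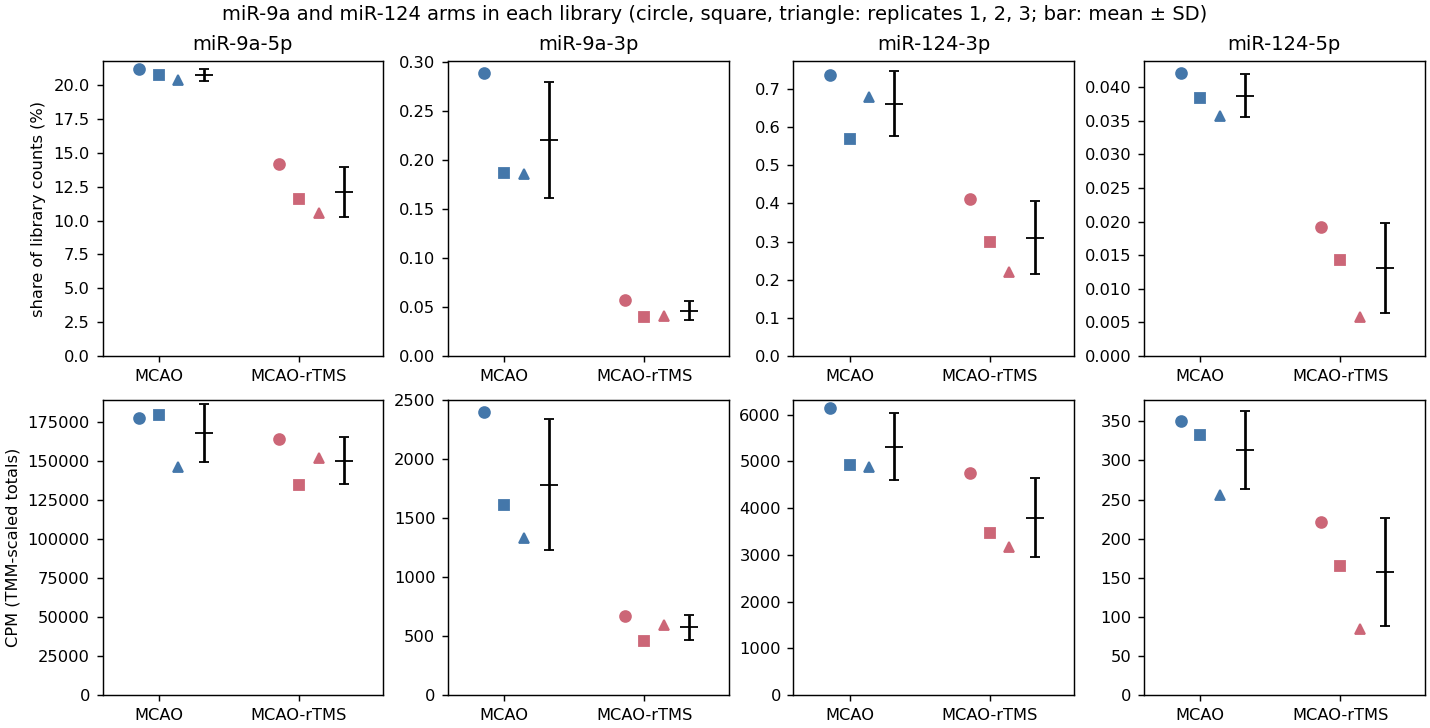
Library share (upper row, percent of library counts) and level (lower row, CPM of TMM-scaled totals) of the 4 members, with 1 point per rat and bars for the mean ± SD (n = 3 per group). The shares of the groups do not overlap for any member, from 20.4% to 21.2% against 10.5% to 14.2% for miR-9a-5p, whereas in CPM the groups overlap for miR-9a-5p alone.

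In the plot of shares and levels by rat, all 4 members had lower shares in every stimulated rat, and 3 of the 4 also had lower CPM without overlap. Each of these differences had p = 0.1 in a two-sided exact permutation test, which is the smallest value that 3 rats against 3 allow, and miR-9a-5p in CPM had p = 0.3 in the same exact test. Such separation was common in these libraries. Of all 452 miRNAs, 69.9% had shares without overlap between the groups, and 55.3% had them lower in the stimulated rats. In CPM, 66.8% of all miRNAs had no overlap, and 36.1% were lower in this way. In the edgeR test, 2 of the 4 members were called lower, beside 55.3% of all miRNAs called in either direction and 28.1% called lower. Together the members took 21.7% ± 0.539 (SD, n = 3) of the MCAO libraries and 12.5% ± 1.97 (SD, n = 3) of the MCAO-rTMS libraries. Over the same libraries the share of the 8 let-7 5p arms went from 13.0% ± 0.917 (SD, n = 3) to 30.4% ± 2.05 (SD, n = 3). With the let-7 5p arms removed from the totals, miR-9a-5p took 23.9% ± 0.254 (SD, n = 3) and 17.4% ± 2.90 (SD, n = 3), and with the 10 most abundant other miRNAs removed it took 41.8% ± 1.71 (SD, n = 3) and 33.8% ± 2.62 (SD, n = 3). The shares of all 4 members stayed apart between the groups with either of these totals.

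The fold change of miR-9a-5p therefore depended on how the libraries were scaled, and so did the middle of all miRNAs. The median log2 fold change over the 452 miRNAs was -0.21 with TMM factors, -0.15 with RLE factors, -0.50 with upper-quartile factors, and -0.80 with library totals only. When the TMM factors were set without the 10 most abundant miRNAs it was -0.13. The log2 fold change of miR-9a-5p followed this median, at -0.45 (edgeR adjusted p = 0.0277) with upper-quartile factors and at -0.78 (edgeR adjusted p = 0.00275) with library totals only. A change of factors shifts the log2 fold changes of all miRNAs by nearly the same amount. Distances from the median are thus nearly fixed in advance, and their stability over the scalings is no further result. Relative to the median, miR-9a-5p stayed between 0.02 and 0.05 under all 5 scalings, with 230 miRNAs below it and 221 above it in the TMM fit. miR-124-3p stayed between -0.29 and -0.28 relative to the median, and it was called with upper-quartile factors and with library totals only, at log2 fold changes of -0.78 and -1.10. miR-124-5p lay at -0.80 to -0.76 from the same median, with 106 miRNAs lower. miR-9a-3p lay furthest from the median, between -1.45 and -1.42, with 52 miRNAs lower, and it was called under each of the 16 alternatives that were run.

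**Figure D2:**
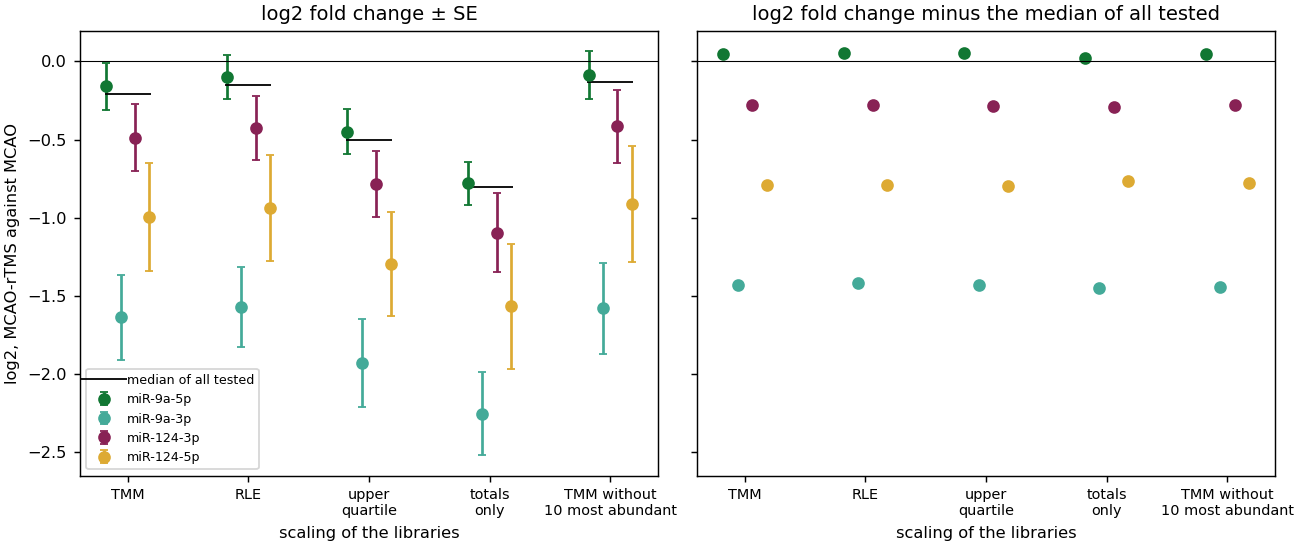
Log2 fold change ± SE of the 4 members under 5 scalings of the libraries (left, with the median of the 452 tested miRNAs as a short line) and the same values minus that median (right). miR-9a-5p sits on the median under every scaling, and miR-9a-3p sits between -1.45 and -1.42 from it. These distances are nearly fixed in advance, since a scaling shifts all miRNAs nearly alike.

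**Figure D3:**
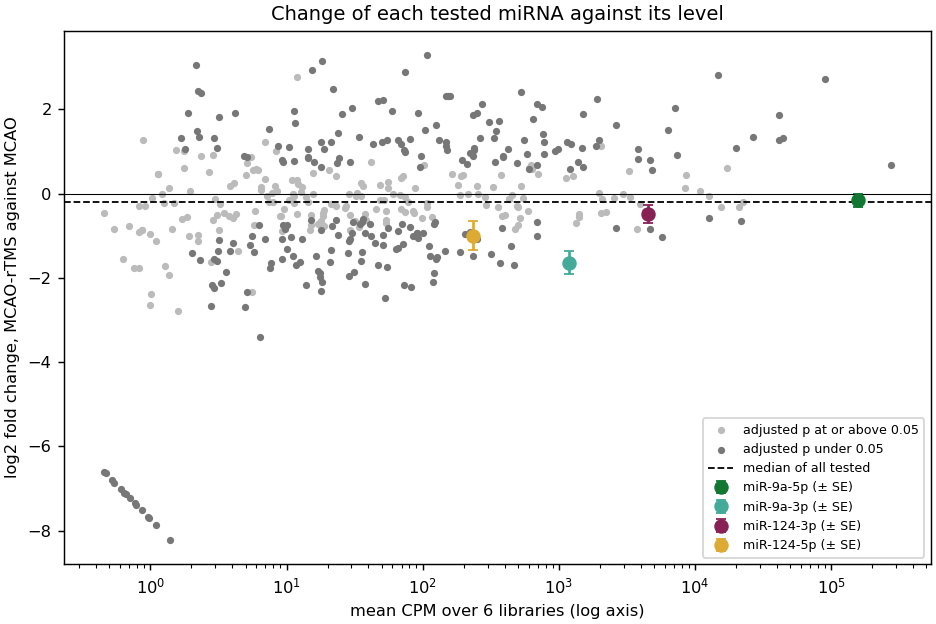
Log2 fold change of each of the 452 tested miRNAs against its mean level over the 6 libraries (CPM, log axis), with the 4 members as large points ± SE and the median of -0.21 as a dashed line. miR-9a-5p lies at the right edge near the median, and the other members lie below it in the order miR-124-3p, miR-124-5p, and miR-9a-3p.

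The plot of fold change under each scaling shows 4 nearly parallel series that keep their order and their distances, which follows from the common shift by the factors. In the plot of change against level, the points near the bottom left are rare miRNAs whose MCAO-rTMS libraries were all listed at 0, and none of them is a member. Counting error was small beside these differences. The 95% Wilson interval of a member's share in 1 library was at most 0.148% of the share to either side for miR-9a-5p, 1.09% for miR-124-3p, 2.65% for miR-9a-3p, and 6.66% for miR-124-5p, which covers counting error only.

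The ratio between the arms of a hairpin is taken within a library, so it does not depend on any scaling. miR-9a is dominated by its 5p arm, with 73.7, 111, and 109 reads of 5p per read of 3p in the MCAO rats, and 246, 291, and 256 in the MCAO-rTMS rats. All 3 stimulated rats were far above the MCAO rats. The mean ratio was 98.1 ± 21.2 (SD, n = 3) against 264 ± 23.7 (SD, n = 3), and the 3p arm supplied 1.05% ± 0.255 (SD, n = 3) of the miR-9a reads without stimulation and 0.379% ± 0.0325 (SD, n = 3) with it. On the log2 scale the 5p to 3p ratio of miR-9a rose by 1.45 (SE 0.26, limma adjusted p = 0.00642 over 138 hairpins), which is 2.73-fold. The 2 arms of miR-9a thus differed in their change by more than the spread between rats, the abundant 5p arm staying near the median of all miRNAs and the 3p arm falling.

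miR-124 is dominated by its 3p arm. It had 17.5, 14.8, and 19.0 reads of 3p per read of 5p in the MCAO rats, and 21.5, 21.0, and 37.5 in the MCAO-rTMS rats. The groups did not overlap, but 2 of the stimulated rats lay close to the highest MCAO rat and MCAO-rTMS replicate 3 stood alone. The mean ratio was 17.1 ± 2.10 (SD, n = 3) against 26.7 ± 9.39 (SD, n = 3), and the 5p arm supplied 5.57% ± 0.672 (SD, n = 3) and 3.86% ± 1.10 (SD, n = 3) of the miR-124 reads. The log2 5p to 3p ratio of miR-124 differed by -0.59 (SE 0.31, limma adjusted p = 0.182), which did not pass the test, and by -0.32 without MCAO-rTMS replicate 3. In both hairpins the minor arm thus had a smaller part of the reads in every stimulated rat, with p = 0.1 in the two-sided exact permutation test of each ratio. The log2 5p to 3p ratios of the 2 hairpins, miR-9a minus miR-124, differed by 10.7 ± 0.344 (SD, n = 3) in MCAO rats and 12.7 ± 0.448 (SD, n = 3) in stimulated rats. That these did not overlap, with p = 0.1 in the exact permutation test, follows from the 2 separate ratios and is no further result. The hairpins have opposite major arms, so a gain of the major arm in both widens this difference.

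**Figure D4:**
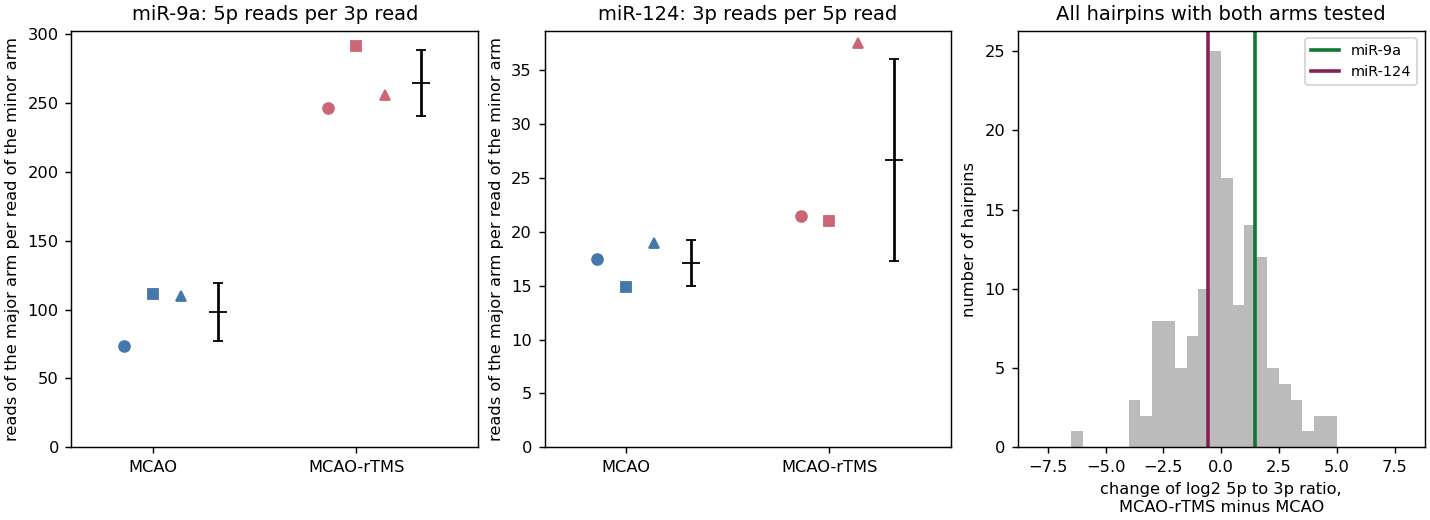
Reads of the major arm per read of the minor arm in each rat for miR-9a (left) and miR-124 (middle), with bars for the mean ± SD (n = 3 per group), and a histogram of the change of the log2 5p to 3p ratio over 138 hairpins (right). The ratio of miR-9a is 73.7 to 111 in the MCAO rats and 246 to 291 in the MCAO-rTMS rats, and many hairpins moved as far as the miR-9a line at 1.45.

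Among all hairpins a change of this size was not rare, as the histogram of the ratio plot shows. Of the 138 hairpins with both arms tested, 42.8% had a changed ratio by limma, 23.2% with a higher and 19.6% with a lower 5p to 3p ratio, and the ratios of 52.2% did not overlap between the groups. The change of miR-9a was the 31st largest rise, and the median size of a change was 1.30. Read by major and minor arm, the major arm gained in 85 of the 138 hairpins and lost in 53, with 27.5% called as gained. Among the 62 hairpins whose arms both had a mean count of at least 200, the major arm gained in 42 and lost in 20, and miR-9a ranked 14th and miR-124 28th by its gain. In strength of arm preference over all libraries miR-9a ranked 22nd and miR-124 54th of the 138.

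The guide arms of the hairpins were also compared directly. There were 28.8, 36.4, and 30.0 reads of miR-9a-5p per read of miR-124-3p in the MCAO rats, and 34.5, 38.8, and 48.0 in the MCAO-rTMS rats. The groups overlapped, and the log2 ratio of miR-124-3p to miR-9a-5p differed by -0.34 with p = 0.2 in the two-sided exact permutation test. This difference was between -0.45 and -0.21 with each library left out, and the smallest was without MCAO-rTMS replicate 3. For the minor arms there were 0.146, 0.206, and 0.192 reads of miR-124-5p per read of miR-9a-3p in the MCAO libraries and 0.332, 0.357, and 0.142 in the MCAO-rTMS libraries, with overlap and an exact permutation p = 0.4. Unlike the ratio within the miR-9a hairpin, both ratios between the hairpins overlapped between the groups.

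The pattern of each member over the 6 libraries was compared with that of the 157 tested miRNAs with a mean of at least 100 CPM. Pearson's r of log2(CPM + 1) is given as a description, since all points share the same 6 libraries and the same scaling factors. The group means were not removed, so a difference between the groups in the same direction also raises r. Nearest to miR-9a-5p were miR-26a-5p (r = 0.930), the endothelial miR-126a-3p (0.909), and miR-27a-3p (0.833), none of which passed the edgeR test. Nearest to miR-9a-3p were miR-22-3p (0.989), miR-495 (0.979), and miR-369-5p (0.971), all of which fell. For miR-124-3p they were miR-29b-3p (0.944), miR-26b-5p (0.940), and miR-22-3p (0.928). miR-124-5p was followed most closely by miR-212-3p (0.996), here the minor arm of an activity-induced neuronal hairpin, and by miR-30b-5p (0.990) and miR-26b-5p (0.982). Among the members, the arms of miR-124 were the most alike (0.924), the arms of miR-9a had r = 0.730, and miR-9a-5p and miR-124-5p were the least alike (0.598).

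Other miRNAs of neurons and neural progenitors included some that rose and some that fell with TMM scaling, in a balance that moved with the scaling. Of 15 listed and tested, 5 rose with stimulation, 6 fell, and 4 did not pass the edgeR test, beside 27.2% of all miRNAs called higher and 28.1% called lower. The median log2 fold change of the list was -0.59 against -0.21 for all miRNAs. Upper-quartile factors gave 3 that rose and 7 that fell, and library totals only gave 1 that rose, miR-184, and 9 that fell. Among those that rose were miR-128-3p (log2 fold change 0.69, adjusted p = 0.0358), which dampens neuronal excitability, the dendritic miR-134-5p (1.03, adjusted p = 0.00313), and miR-184 (2.03, adjusted p = 0.000793), which acts on neural stem cell proliferation. miR-25-3p (0.95), of the miR-106b cluster, and miR-7a-5p (0.93), an abundant neuronal miRNA, rose as well.

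Among those that fell were arms of synaptic miRNAs, namely miR-137-3p (-2.16), miR-138-5p (-1.65), and miR-212-3p (-0.72). These values are of the listed arms only, and miR-137-3p had low means of 22.8 CPM in the MCAO and 5.10 CPM in the MCAO-rTMS libraries. From MCAO to MCAO-rTMS libraries the mean log2 5p to 3p ratio went from -1.76 to 1.29 for miR-137 and from 3.10 to 5.42 for miR-212. Also lower were miR-17-5p (-2.10) and miR-106b-5p (-2.69), which promote the cell cycle in progenitors, and miR-125b-5p (-0.64). miR-106b-5p was scarce, with means of 8.63 CPM in the MCAO and 1.32 CPM in the MCAO-rTMS libraries. Its highest count was 151, where the smallest count above 0 of any miRNA was 10. miR-132-3p, which shares its primary transcript with miR-212, was at -0.43, and miR-153-3p, miR-218a-5p, and miR-34a-5p were at -0.61, -0.50, and -0.59, and did not pass the test. miR-106b-5p and miR-25-3p, which come from 1 primary transcript, had opposite signs, but miR-106b-5p was the minor arm of its hairpin. The mean log2 5p to 3p ratio of miR-106b was -3.17 in the MCAO and -7.16 in the MCAO-rTMS libraries, so the sign of the 5p arm does not stand for the hairpin. The listed miRNAs together held 29.7% to 32.2% of the MCAO libraries and 27.3% to 33.8% of the MCAO-rTMS libraries, and most of this was miR-128-3p, at 212037 ± 34858 CPM (SD, n = 3) and 341033 ± 98958 CPM (SD, n = 3). The log2 fold change of miR-128-3p was 0.69 with TMM factors, 0.41 with upper-quartile factors, and 0.04 with library totals only, and the last 2 of these did not pass the edgeR test.

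Markers of other cells in the tissue differed between the groups as well, and their part in the members' values was not tested. Of 6 markers of microglia and blood leukocytes, 5 fell with stimulation and miR-146a-5p (-0.58) did not pass the edgeR test, beside the 28.1% of all miRNAs called lower. The 5 include both arms of miR-142, and the CPM of miR-142-5p overlapped between the groups. These values are of single arms. From MCAO to MCAO-rTMS libraries the mean log2 5p to 3p ratio went from 6.72 to 3.97 for miR-150, which passed the limma test. It went from -2.67 to -0.73 for miR-223 and from 0.743 to 0.953 for miR-142, which did not pass. The median log2 fold change of these markers was -1.26. Their summed level was 1134 to 1252 CPM in the MCAO libraries and 605 to 813 CPM in the MCAO-rTMS libraries. Most of the sum came from miR-146a-5p and miR-150-5p, with MCAO means of 618 and 489 CPM, and the other 4 had MCAO means of 4.49 to 61.8 CPM. Examples are miR-223-3p (-1.76), of myeloid cells, and miR-155-5p (-1.17), of activated macrophages and microglia. Of the markers of endothelium, miR-126a-5p fell (-1.22) and miR-126a-3p was at -0.84 (adjusted p = 0.0539 from edgeR), with summed levels of 2993 to 6298 CPM and 2017 to 3293 CPM. The arm that fell was the minor arm, with a mean log2 5p to 3p ratio of -6.03 in the MCAO and -6.42 in the MCAO-rTMS libraries. The CPM of the major arm, miR-126a-3p, overlapped between the groups.

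Other cell types had markers on both sides, and the rises of miR-219a-2-3p and miR-143-3p did not pass edgeR's test with library totals only. In oligodendrocytes, miR-219a-2-3p rose (1.22) and miR-338-3p was at -0.73 without passing the test, with summed levels of 571 to 786 CPM and 963 to 2106 CPM. miR-338-3p was the minor arm of its hairpin here, with a mean log2 5p to 3p ratio of 3.62 in the MCAO and 5.02 in the MCAO-rTMS libraries. In smooth muscle and pericytes, miR-143-3p rose (1.07) and miR-145-5p was at -0.08, with 1938 to 3460 CPM and 4328 to 6689 CPM. Of the red blood cell markers, miR-451-5p fell (-1.61) and miR-486 rose (1.72), with 141 to 302 CPM and 513 to 637 CPM. No tested marker of these cell types was listed at 0 in any library, while the oligodendrocyte marker miR-219a-5p (0 in 4 libraries, at most 12 counts) and the red cell marker miR-144-3p were not tested.

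**Figure D5:**
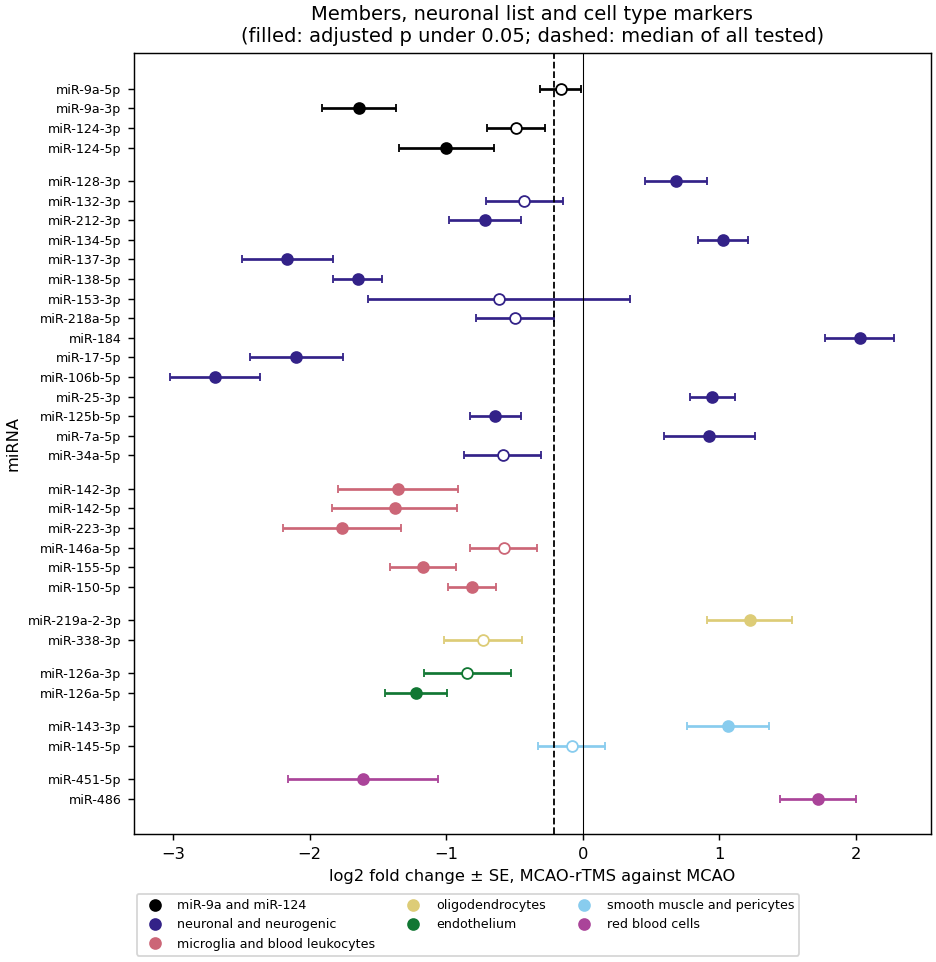
Log2 fold change ± SE between the MCAO-rTMS and MCAO groups for the 4 members, 15 neuronal and neurogenic miRNAs, and 14 tested cell type markers, with the median of all miRNAs as a dashed line at -0.21 and filled points for an adjusted p under 0.05. The neuronal list spreads to both sides, from -2.69 for the scarce miR-106b-5p to 2.03 for miR-184, which also had a low level. Of the 6 microglia and leukocyte markers, 5 are filled and below the median, including both arms of miR-142.

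In the plot of the lists, miR-9a-3p lies among the neuronal miRNAs that fell, miR-9a-5p lies beside the dashed line, and the miR-124 arms lie between them.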

How the data were processed

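The labels number 3 samples per group and the study's methods give them as 3 rats. RNA was extracted with Magzol, libraries were made with a NEBNext small RNA kit, and an Illumina HiSeq machine was used. The authors deposited raw counts of reads per mature miRNA, without normalization, for the 6 libraries, and a table of 73 selected miRNAs with the same counts. The submitters' processing notes name bcl2fastq, BWA, DESeq2, and the rn6 build. The miRNA database and the treatment of reads with more than 1 match are not given in the sources used here, and either choice could change the split of reads between the arms of a hairpin. Coordinates are not printed, since the RefSeq tables are of GRCr8.

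The test between groups was that of edgeR 4.0.16 in R 4.3.3 (filterByExpr, TMM, quasi-likelihood test, group as the only term, Benjamini-Hochberg over 452 miRNAs, threshold 0.05). The study's methods name a two-sample test on each miRNA, which was run as an alternative because the values are counts. Arms were paired by name, and log2((5p + 0.5)/(3p + 0.5)) was compared with limma 3.58.1 over 138 hairpins. Shares and ratios were compared with exact permutation tests in Python 3.11.15 with scipy 1.17.1, and figures were drawn with matplotlib 3.10.9. Since 1 read spans a miRNA, counts were not divided by length. The fits were tested on simulated data.

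The miRNAs named are the members, their relatives by name or seed, the lists of neuronal miRNAs and cell type markers, and for each member the 3 miRNAs most like it. The members and lists were chosen with earlier results of these data known. Alternatives were RLE and upper-quartile factors, totals only, TMM without the 10 most abundant miRNAs, DESeq2 1.42.0, limma-voom, the two-sample test, no filter, a mean count of at least 200, a replicate block, and leaving out each library in turn. Reads have no molecular identifiers that were used, so intervals cover counting error only.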

Additional observations from a re-analysis of the deposited data

How the results depend on the processing

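The fall of miR-9a-3p passed the threshold under all 16 alternatives, with log2 fold changes from -2.25 to -1.36 and, with each library left out, from -1.80 to -1.36. miR-9a-5p was called with upper-quartile factors (-0.45) and with library totals only (-0.78), and was between -0.23 and -0.05 with each library left out. miR-124-3p was called with upper-quartile factors (-0.78), totals only (-1.10), and a mean count of at least 200 (-0.61), and was between -0.68 and -0.34 with each library left out. miR-124-5p lost its call with TMM without the 10 most abundant miRNAs (-0.91, edgeR adjusted p = 0.0706) and in the equal-variance two-sample test (-1.09, adjusted p = 0.111 from that test over all miRNAs), and was between -1.33 and -0.66 with each library left out. Why these calls moved was not tested beyond the scaling medians.

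The rise of the miR-9a 5p to 3p ratio was called under every alternative run (1.26 to 1.55 with each library left out), and the miR-124 ratio under none (-0.74 to -0.32). The number of changed arm ratios was 31 of 62 with both arms at a mean count of at least 200, since fewer hairpins were tested, and 43 to 64 with each library left out. Differences in share were -6.46 percentage points for miR-9a-5p without the let-7 5p arms, and -0.314, -0.473, and -0.0424 for miR-9a-3p, miR-124-3p, and miR-124-5p without the 10 most abundant other miRNAs. With each library left out the share of miR-9a-5p differed by -9.70 to -7.90. Neuronal miRNAs numbered 3 higher and 7 lower with upper-quartile factors and 1 higher and 9 lower with totals only, and with each library left out 3 to 5 were higher (3 without MCAO replicate 1 or 2) and 4 to 8 lower. The log2 ratio of miR-124-3p to miR-9a-5p was between -0.45 and -0.21 with each library left out. Changed miRNAs numbered 250 (49.2% higher), 257 with upper-quartile factors (33.1% higher), 263 with totals only (20.9% higher), 196 in the two-sample test, and 179 to 253 with each library left out.

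Deviations of same-numbered libraries from their group means had r = 0.20, -0.12, and -0.11, and those of differently numbered libraries lay between -0.28 and 0.30. With 3 libraries per group mean, these correlations cannot exclude a pairing or a shared batch. With the replicate number as a block, the log2 fold changes were -0.16, -1.61, -0.50, and -1.09 for miR-9a-5p, miR-9a-3p, miR-124-3p, and miR-124-5p, and the edgeR calls of these were as without it. The block gave arm ratios of 1.45 for miR-9a and -0.59 for miR-124, 45 changed arm ratios, and 180 changed miRNAs. Depth did not limit the members, whereas 3 rats per group limit the precision.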
